A study of Homo sapiens with 6 samples.

Results

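The mitochondrial ribosomal proteins were followed in U251 cells, an established human glioma line, after treatment with 6-shogaol. The group was every row of the deposited FPKM table whose gene symbol was MRPL or MRPS followed by a number and, for a few genes, a letter from A to C, with a mean raw count of at least 10. All 78 rows with such a symbol met the count minimum, of 60612 rows in all, and all 78 were kept by the filter on low counts that precedes the test. Of these, 49 had MRPL symbols, for the large subunit, and 29 had MRPS symbols, for the small subunit, although MRPS18A and MRPS30 are built into the large subunit and are counted there below.

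The study sequenced RNA from 3 control libraries and 3 libraries treated with 6-shogaol, a pungent compound of dried ginger. All cells were labelled wild type, were kept in DMEM with fetal bovine serum and were taken at 24 h. The dose was given as 60 with the unit written "μm", read here as micromolar, and the controls were described only as without the compound. The labels do not state whether replicates came from separate cultures, so p-values can speak only for how far these 6 libraries vary, and that variation may be technical.

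Mitochondria carry their own ribosome, the mitoribosome, which translates only the respiratory chain and ATP synthase proteins encoded in the mitochondrial DNA. Its ribosomal RNAs are made inside the organelle, while all of its proteins are encoded in the nucleus, made in the cytosol and imported. Some of these proteins descend from bacterial ribosomal proteins, and others are found only in mitochondrial ribosomes, where they coat the surface and replace parts of the shortened RNA.

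Libraries held 43516840 to 60018999 counts, and a count of 0 allows up to 3 counts, or 0.05 to 0.0689 CPM by library, for counting error alone. CPM is a library's count for a gene scaled to a common total, here with a TMM factor per library that ran from 0.991 to 1.02. The line's labelled origin was set against glial markers: VIM was at 5602 to 9763 CPM, NES at 539 to 777, SOX2 at 235 to 329 and CD44 at 232 to 311, while S100B was at 0.23 to 1.35. GFAP, the astrocyte intermediate filament, fell from 33.9, 24.2 and 23.8 CPM in controls 1, 2 and 3 to 9.05, 8.39 and 9.19 with 6-shogaol (edgeR adjusted p = 0.00655), and NES fell by 0.42 on the log2 scale (adjusted p = 0.0484). The other 4 did not pass: SOX2 was lower in all treated libraries (log2 fold change -0.33; edgeR adjusted p = 0.0646), CD44 was higher in all of them (0.25; edgeR adjusted p = 0.1203), and VIM and S100B overlapped (0.05 and -0.64). Of 4 markers of other cells, EPCAM stayed at or under 0.443 CPM, RBFOX3 at or under 0.988, and PTPRC and PECAM1 were too low to be tested. The part of these marker differences, which had both directions, in the values below was not tested, and in bulk RNA fewer cells of a type and less RNA per cell cannot be told apart.

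No mitochondrial ribosomal protein passed the test between the groups. edgeR's quasi-likelihood test with Benjamini-Hochberg adjustment over all 19279 genes tested called 0 of 78 members at an adjusted p under 0.05, against a background of 3.38% of all genes tested (1.67% higher and 1.71% lower). Before adjustment 15 members had a p under 0.05, 6 higher and 9 lower, which is 19.2% of the members beside 20.4% of all genes tested (10.4% higher and 9.95% lower). Among other tools, DESeq2 called 4 members, MRPS10 and MRPS16 higher and MRPL28 and MRPL51 lower, beside 10.3% of the genes it gave an adjusted p. The limma test on log2(FPKM + 1) called MRPS10 higher and MRPL54 lower, beside 6.04% of its genes, and with log2(FPKM + 0.1) only MRPS10, beside 5.79%. The smallest adjusted p in edgeR was that of MRPL51 (0.0639).

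The members lay evenly on both sides of no difference. The fitted log2 fold change (6-shogaol minus control) was above 0 for 39 members and below 0 for 39, with a median of -0.01 and quartiles of -0.14 and 0.14. Over all genes tested the median was -0.00 and the quartiles -0.22 and 0.22. Values ran from -0.33 (MRPL54) to 0.79 (MRPS16), and only MRPS16 and MRPL30 lay beyond 1.5-fold, where 17.0% of all genes tested did. In 25 members the 2 groups of libraries did not overlap in CPM, 12 higher and 13 lower with 6-shogaol, which is 32.1% of the members beside 27.9% of all genes tested (14.0% higher and 13.9% lower). To hold the depth of counting alike, the members were also set beside the 11204 tested genes within their own range of mean counts, of which 32.1% had groups that did not overlap and 25.2% an unadjusted p under 0.05.

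**Figure D1:**
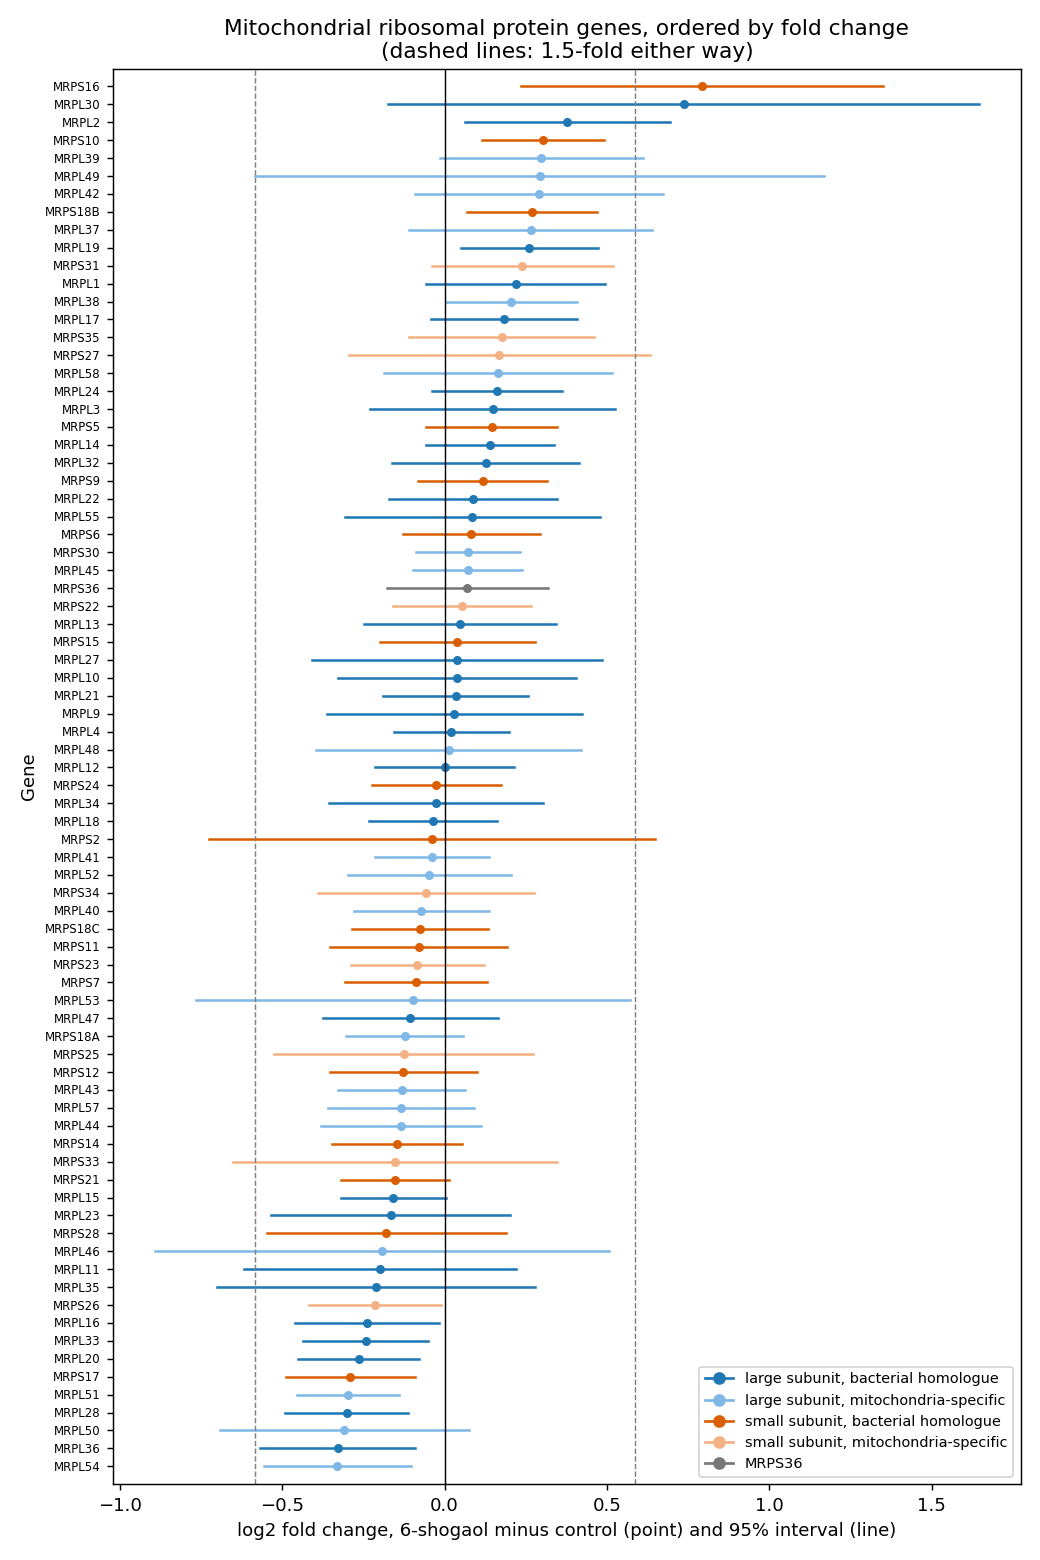
Log2 fold change (6-shogaol minus control) of each of the 78 members from edgeR (point) with its 95% interval (line), ordered by value and coloured by subunit and origin, with dashed lines at 1.5-fold either way. Points run from -0.33 for MRPL54 to 0.79 for MRPS16, 39 lie on each side of 0, and the lines of MRPL30, MRPL49 and MRPS16 reach past 2-fold.

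The precision bounded most members tightly. The 95% interval of the log2 fold change lay within 1.5-fold either way for 63 of 78 members and within 2-fold for 75, with a median half-width of 0.24. The 3 whose interval reached 2-fold were MRPS16, MRPL30 and MRPL49. The coefficient of variation of CPM within a group of 3 had a median of 7.23% in controls and 7.60% with 6-shogaol, beside 8.10% and 9.83% for tested genes in the same range of counts. In 34 members it was under 10% in both groups, and in 7 it was over 30% in a group (MRPL30, MRPL49, MRPS2, MRPL46, MRPL53, MRPS33 and MRPS16).

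As a share of all counts, the members took 0.292%, 0.292% and 0.288% in controls 1, 2 and 3 and 0.301%, 0.303% and 0.3003% with 6-shogaol. The raw shares of the groups did not overlap. After TMM scaling they were 0.295%, 0.295% and 0.288% against 0.295%, 0.306% and 0.3001%, and the groups overlapped, since 6-shogaol library 1 was level with controls 1 and 2. The mean log2 deviation of the members from the control mean was 0.01, 0.02 and -0.03 in the controls and -0.02, 0.03 and 0.03 in the 6-shogaol libraries. The 2 sets of values overlapped.

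Levels differed far more between members than between groups. Per length, the mean FPKM over the 6 libraries ran from 1.36 to 86.5, a ratio of 63.8, with a median of 11.7 and quartiles of 6.51 and 16.7, and 50 of 78 members lay within 2-fold of the median. MRPL41, a mitochondria-specific protein of the large subunit, was highest at 83.8, 86.6 and 90.5 FPKM in controls and 93.1, 79.3 and 85.5 with 6-shogaol. MRPL12, the stalk protein that bacteria carry in several copies per ribosome, had 52.5, 51.3 and 49.1 FPKM in controls and 58.8, 49.3 and 47.4 with 6-shogaol, and MRPL51 followed with a mean of 50.7. MRPL12 and MRPL51 overlapped over the libraries and their order was not distinguishable, while MRPL41 stood above both in every library.

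At the low end stood 3 mitochondria-specific proteins of the large subunit. MRPL46 was lowest, at 1.74, 1.43 and 1.15 FPKM in controls and 0.774, 1.39 and 1.65 with 6-shogaol. MRPL42 had 2.08, 1.67 and 1.61 against 1.79, 2.48 and 2.37 FPKM, and MRPL48 had 2.16, 2.58 and 2.36 against 1.88, 2.70 and 2.67 FPKM. These 3 overlapped with their neighbours in the order. The length the authors divided by, as implied by counts and FPKM, was 19369 bases for MRPL42, 7580 for MRPL46, 4557 for MRPL48 and 687 for MRPL41, with a median of 3006 over the members. On the CPM scale, which takes no length into account, MRPL42 was at 31.1 to 48.5 and had rank 34 of the 78 by mean count. MRPL46 at 5.72 to 13.3 CPM and MRPL48 at 8.39 to 12.4 CPM stayed near the bottom, with ranks 77 and 75.

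**Figure D2:**
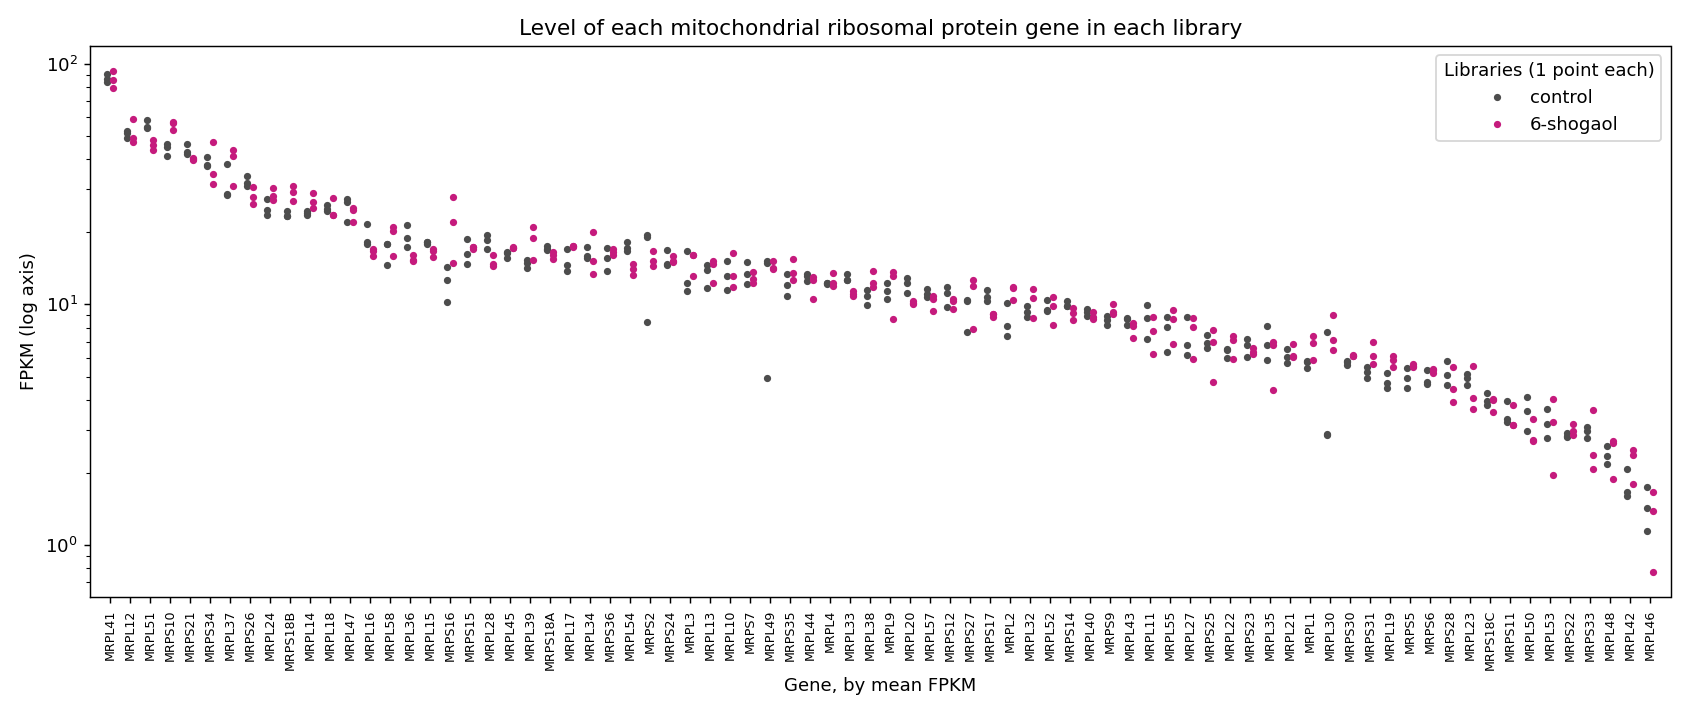
FPKM of each member in each library on a log axis, ordered by the mean over the 6 libraries, with 1 point per library (grey, control; magenta, 6-shogaol). The level falls from 86.5 for MRPL41 to 1.36 for MRPL46, and single low points mark MRPS2 and MRPL49 in control 1 and MRPL30 in controls 1 and 2.

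By class, the median FPKM was 12.2 for the 30 large-subunit proteins with a bacterial homologue, 11.7 for the 21 mitochondria-specific ones, 10.5 for the 17 small-subunit proteins with a bacterial homologue and 6.75 for the 9 mitochondria-specific ones. The 21 include MRPS18A, a paralogue of the bacterial small-subunit protein S18 that is built into the large subunit. The order of the members by FPKM was nearly the same in both groups (Spearman's rho = 0.971 across the 78 genes, which share libraries and lengths). The log2 fold changes of the classes had medians of 0.03, -0.05, -0.04 and -0.06 in the same order, with 18 of 30, 9 of 21, 7 of 17 and 4 of 9 members above 0. edgeR called no member of any class. DESeq2 called 1, 1, 2 and 0 in that order, beside its 10.3% over all genes. Unadjusted p-values under 0.05 in edgeR numbered 7, 3, 4 and 1, which is 23.3%, 14.3%, 23.5% and 11.1% of the classes beside 20.4% of all genes tested.

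Many nuclear genes for mitochondrial proteins are known to be bound close to their starts by ETS factors such as GABP and by NRF1, and the promoters were read for those sequences. A RefSeq start (GRCh38.p14) was used for 69 members, and the others were MRPS36, MRPL2, MRPL35, MRPL23, MRPL10, MRPL13, MRPS28, MRPL15 and MRPL21. In the 250 bases before it, the ETS core CCGGAAG, on either strand, occurred in 25 of 69 members (36.2%), beside 17.7% of the 11713 tested genes with an entry and 10.2% of all 27305 genes. The NRF1 sequence (GCGC, any base N, then TGCGC), on either strand, occurred in 9 (13.04%), beside 11.2% and 6.20%, and 33 members had either. The YY1 sequence AAGATGGCG, on either strand, occurred in 3 members before the start (4.35%, beside 1.35% and 0.784%) and in 13 (18.8%) when the 50 bases after it were added, beside 4.28% of tested genes and 2.14% of all. The CRE sequence TGACGTCA, its own reverse complement, occurred in 1 member (1.45%), beside 3.30% and 2.03%. None of these sequences is part of another.

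Below are 4 of these promoters, with the ETS and NRF1 matches in capitals and all sequences 5′ to 3′ on the strand of the gene. MRPL30 is shown as the only member with both motifs, MRPL51 as the member with the smallest adjusted p, MRPS10 as the member with the most counts, and MRPL17 as an example of NRF1 alone that was chosen after its values were seen. The windows are chr2:99180934-99181183 (plus strand) for MRPL30, chr12:6493263-6493512 (minus) for MRPL51, chr6:42217862-42218111 (minus) for MRPS10 and chr11:6683341-6683590 (minus) for MRPL17.
MRPL30: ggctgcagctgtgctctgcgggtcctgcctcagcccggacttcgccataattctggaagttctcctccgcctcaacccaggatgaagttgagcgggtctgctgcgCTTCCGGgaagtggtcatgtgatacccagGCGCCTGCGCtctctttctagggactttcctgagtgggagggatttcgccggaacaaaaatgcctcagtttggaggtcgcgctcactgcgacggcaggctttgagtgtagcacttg
MRPL51: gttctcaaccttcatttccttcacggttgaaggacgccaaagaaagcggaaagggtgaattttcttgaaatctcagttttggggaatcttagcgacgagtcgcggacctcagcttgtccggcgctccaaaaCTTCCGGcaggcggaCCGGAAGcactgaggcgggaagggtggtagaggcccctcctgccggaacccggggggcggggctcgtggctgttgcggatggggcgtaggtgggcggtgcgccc
MRPS10: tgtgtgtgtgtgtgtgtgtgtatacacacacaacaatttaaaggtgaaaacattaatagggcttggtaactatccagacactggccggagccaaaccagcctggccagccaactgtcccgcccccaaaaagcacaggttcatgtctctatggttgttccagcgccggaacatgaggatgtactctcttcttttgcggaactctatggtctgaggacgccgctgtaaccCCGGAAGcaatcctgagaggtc
MRPL17: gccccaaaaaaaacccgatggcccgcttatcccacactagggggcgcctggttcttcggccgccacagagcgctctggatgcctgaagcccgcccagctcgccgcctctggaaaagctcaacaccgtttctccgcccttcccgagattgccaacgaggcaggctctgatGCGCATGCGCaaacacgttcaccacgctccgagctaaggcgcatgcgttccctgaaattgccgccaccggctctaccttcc

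In MRPL30 the ETS match CTTCCGG begins 145 bases before the RefSeq start and the NRF1 match GCGCCTGCGC 116 bases before it. MRPL51 has ETS matches in both orientations, 119 and 104 bases before the start. MRPS10 has a single ETS match at 22 bases, and MRPL17 a single NRF1 match, GCGCATGCGC, at 81 bases. The 25 members with an ETS match had a median log2 fold change of -0.07, with 9 of 25 above 0, and the 44 without it 0.03, with 25 of 44 above 0. For NRF1 the medians were 0.07 with a match, with 5 of 9 above 0, and -0.03 without, with 29 of 60 above 0. The differences between members with and without a match were not tested. The RefSeq starts of MRPL30 and MRPL51 lie inside the spans that the deposited table gives. A match is a run of letters, and no binding was measured.

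Among small-subunit proteins with a bacterial homologue, MRPS16 had the largest difference of all members. MRPS16 (chr10:73248843-73252644), a protein whose inherited loss causes a respiratory chain disorder, was at 42.0, 34.1 and 47.0 CPM in controls and 47.8, 73.5 and 92.0 with 6-shogaol. The groups did not overlap, but 6-shogaol library 1 lay next to control 3 while library 3 was far above it. The log2 fold change was 0.79 ± 0.24 (SE, n = 3 per group), at an edgeR adjusted p of 0.122. Leaving out a library gave values from 0.56 to 1.01. Among those fits MRPS16 passed only without 6-shogaol library 1, at 1.01 with an edgeR adjusted p of 0.0319, where 1012 genes were called in all.

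MRPS10 (chr6:42206807-42217861), a protein of the head of the small subunit whose promoter is printed above, had the most counts of any member. Its values were 116, 114 and 102 CPM in controls and 127, 142 and 141 with 6-shogaol, and every treated library lay above every control. The log2 fold change was 0.30 ± 0.08 (SE), at an edgeR adjusted p of 0.0912. MRPS17 (chr7:55951877-55956500), the homologue of an RNA-binding bacterial protein of the small subunit, went the other way, at 28.9, 27.0 and 25.5 CPM in controls and 22.0, 22.1 and 22.5 with 6-shogaol. Its treated libraries were closely spaced and all under the controls, with a log2 fold change of -0.29 ± 0.08 (SE), at an edgeR adjusted p of 0.115. NIPSNAP2, which covers 5.19% of the exon length of MRPS17 on the same strand, was at 61.4, 41.6 and 57.6 CPM in controls and 55.1, 67.7 and 40.2 with 6-shogaol, or 218.4% of the counts of MRPS17. The summed CPM of MRPS17 and NIPSNAP2 overlapped between the groups, with a log2 ratio of means of -0.08. Most of that sum is counts of NIPSNAP2, so it cannot show whether MRPS17 alone differed. AC092647, which covers 21.8% of the exon length of MRPS17 on the same strand, was at up to 1.12 CPM. Summed with AC092647, MRPS17 stayed lower in all treated libraries, with a log2 ratio of means of -0.30.

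MRPS2 (chr9:135499984-135504673), a further small-subunit protein with a bacterial homologue, was at 24.9 CPM in control 1 and 57.1 and 55.7 in controls 2 and 3, against 41.1, 48.9 and 44.1 with 6-shogaol. Control 1 was low, and the treated libraries fell between it and the other controls, which gave a log2 fold change of -0.04 ± 0.29 (SE). MRPS2 was singled out after its values were seen.

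Of the large-subunit proteins with a bacterial homologue, MRPL2 and MRPL30 were highest relative to controls and MRPL36 and MRPL28 lowest. MRPL2 (chr6:43054029-43059434), a core protein next to the catalytic centre of the ribosome, was at 26.3, 21.3 and 19.0 CPM in controls and 29.6, 30.2 and 26.6 with 6-shogaol. Control 1 nearly met 6-shogaol library 3, and the log2 fold change was 0.38 ± 0.13 (SE), at an edgeR adjusted p of 0.175. AL355385, a gene counted over MRPL2 on the same strand, took 0, 4.72 and 5.35 CPM in controls and 0, 2.69 and 0 with 6-shogaol. The summed CPM of the pair was 26.3, 26.0 and 24.3 against 29.6, 32.9 and 26.6, so the log2 ratio of group means was 0.22 for the sum, under the fitted value for MRPL2 alone, and the groups of the sum did not overlap either.

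MRPL30 (chr2:99181152-99199561), the member with both promoter motifs, was at 16.4 and 16.5 CPM in controls 1 and 2 but 43.2 in control 3, and at 39.1, 51.4 and 36.2 with 6-shogaol. Control 3 lay among the treated libraries, so the groups overlapped. The log2 fold change was 0.74 ± 0.39 (SE), at an edgeR adjusted p of 0.344, the widest error of any member. Leaving out a library gave values from 0.50 to 1.36. Among those fits, which called 98 to 1012 genes in all, MRPL30 passed only without control 3, at 1.36 with an edgeR adjusted p of 0.0388. Adding AC079447, a gene counted over it on the same strand at up to 2.23 CPM, left the log2 ratio of means at 0.70 and the groups overlapping.

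MRPL28 (chr16:366969-371289) was at 70.8, 67.7 and 61.2 CPM in controls and 56.3, 53.8 and 52.03 with 6-shogaol. All 3 treated libraries lay under all 3 controls, with a log2 fold change of -0.30 ± 0.08 (SE), at an edgeR adjusted p of 0.0948. PGAP6, which covers 7.33% of the exon length of MRPL28 on the same strand, was at 60.5, 64.7 and 67.02 CPM in controls and 72.6, 64.8 and 64.7 with 6-shogaol, or 108.5% of the counts of MRPL28. The summed CPM of the pair was 131.3, 132.4 and 128.3 against 128.9, 118.5 and 116.8, so the groups of the sum overlapped, with a log2 ratio of means of -0.11. That sum holds more counts of PGAP6 than of MRPL28, so it cannot show whether MRPL28 alone differed. MRPL36 (chr5:1798385-1801366), a small zinc-binding protein in bacteria, was at 35.6, 31.5 and 28.6 CPM in controls and 24.5, 25.2 and 26.4 with 6-shogaol. The groups did not overlap, and the log2 fold change was -0.33 ± 0.10 (SE), at an edgeR adjusted p of 0.129.

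The mitochondria-specific proteins of the large subunit held the member with the smallest p. MRPL51 (chr12:6491886-6493841) was at 89.6, 96.5 and 89.4 CPM in controls and 76.8, 72.5 and 74.97 with 6-shogaol. Every treated library lay under every control, and both groups were tight, with a log2 fold change of -0.30 ± 0.07 (SE), at an unadjusted p of 0.0029 and an edgeR adjusted p of 0.0639. MRPL51 shares 31.3% of its exon length with NCAPD2, a condensin subunit on the opposite strand that was at 335, 343 and 360 CPM in controls and 318, 285 and 319 with 6-shogaol (log2 fold change -0.17; edgeR adjusted p = 0.224). Whether the counting used strand is not given in the sources used here, and the part of NCAPD2 reads in the counts of MRPL51 was not tested.

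MRPL54 (chr19:3762682-3768575), which shares no exon base with a counted gene, was at 20.2, 21.3 and 19.4 CPM in controls and 15.05, 17.2 and 16.2 with 6-shogaol. The groups were apart, with a log2 fold change of -0.33 ± 0.10 (SE), at an edgeR adjusted p of 0.116. MRPL50 (chr9:101387633-101398618) was at 16.5, 14.4 and 11.7 CPM in controls and 10.5, 13.3 and 10.6 with 6-shogaol. Control 3 lay under 6-shogaol library 2, so the groups overlapped, and the log2 fold change was -0.31 ± 0.16 (SE), at an edgeR adjusted p of 0.348.

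On the higher side of that class, MRPL39 (chr21:25585656-25607517) was at 21.3, 20.2 and 21.6 CPM in controls and 21.1, 27.0 and 29.6 with 6-shogaol. The first treated library sat among the controls and the others above them, with a log2 fold change of 0.30 ± 0.13 (SE), at an edgeR adjusted p of 0.266. MRPL49 (chr11:65122183-65127371) was at 18.2, 55.6 and 54.1 CPM in controls and 53.6, 51.7 and 51.5 with 6-shogaol. Control 1 alone was low, and the other 5 libraries lay close together. Its log2 fold change of 0.29 ± 0.37 (SE), at an edgeR adjusted p of 0.725, became -0.07 without control 1.

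MRPL46 (chr15:88459477-88467389) also rested on single libraries, at 13.3, 10.9 and 8.70 CPM in controls and 5.72, 10.6 and 12.5 with 6-shogaol. 6-shogaol library 1 was lowest, and the log2 fold change of -0.19 ± 0.30 (SE) became 0.07 without it. AC013489, a gene counted over MRPL46 on the same strand, was at 0.368, 0.239 and 1.37 CPM in controls and 3.49, 1.18 and 0.896 with 6-shogaol, so it was highest in the library where MRPL46 was lowest. The summed CPM of both was 13.7, 11.2 and 10.1 in controls and 9.21, 11.8 and 13.4 with 6-shogaol, so 6-shogaol library 1 stayed lowest. The log2 ratio of group means of the sum was -0.02.

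**Figure D3:**
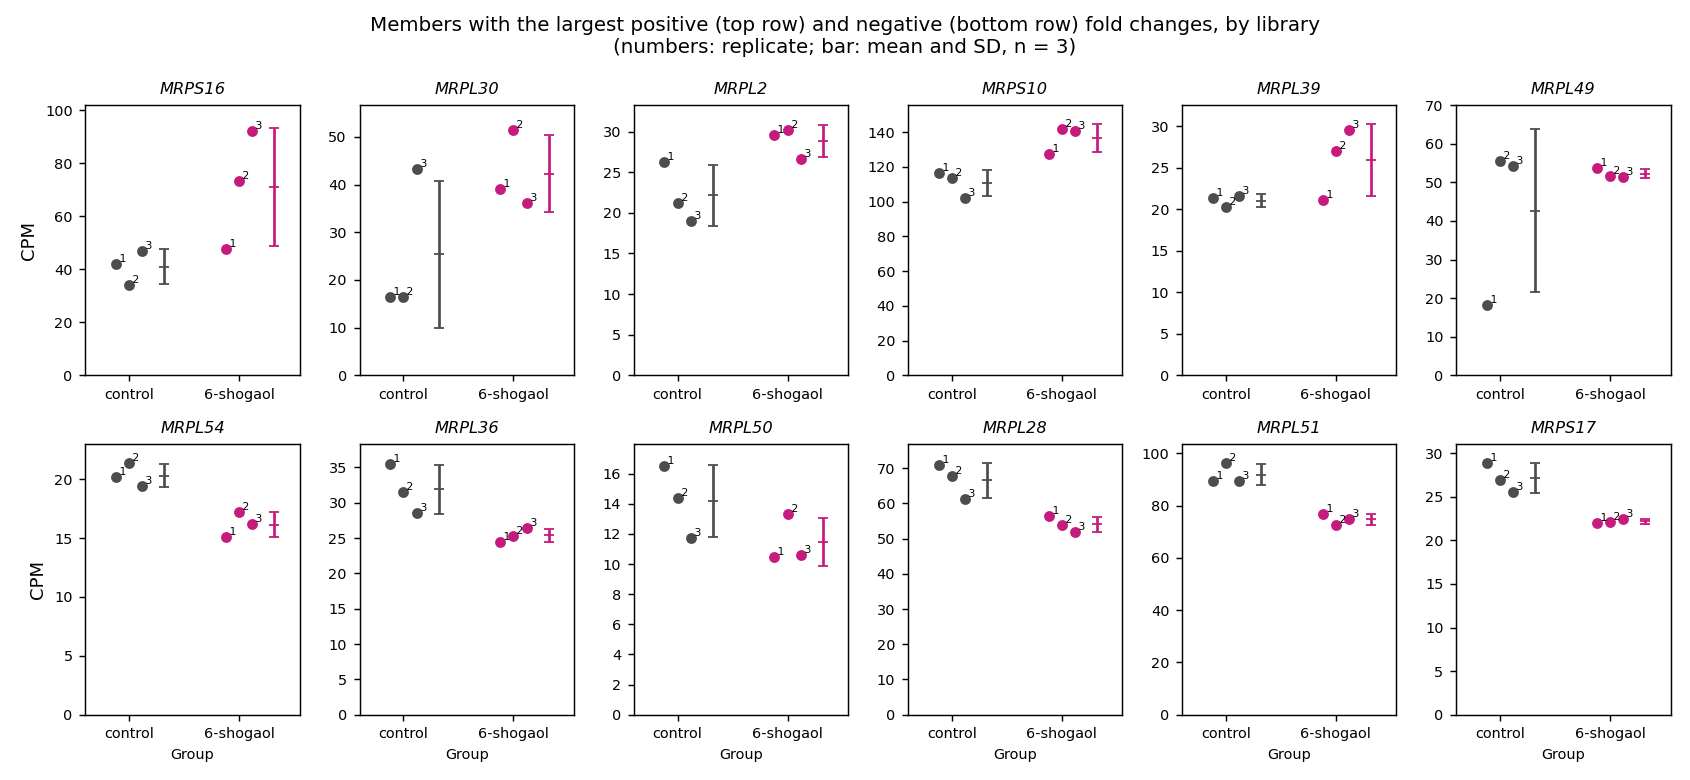
CPM of the 6 members with the largest positive (top row) and the 6 with the largest negative (bottom row) fold changes, by library (points, numbered by replicate), with the mean and SD of each group (bars, n = 3). MRPS16, MRPL2 and MRPS10 in the top row and all but MRPL50 in the bottom row have groups that do not overlap, while MRPL30 and MRPL49 show low controls (16.4 and 16.5, and 18.2 CPM).

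Other members with an unadjusted p under 0.05 were MRPS18B, MRPL19 and MRPL38 on the higher side, with log2 fold changes of 0.27, 0.26 and 0.20, and MRPL20, MRPL33, MRPL16 and MRPS26 on the lower side, at -0.26, -0.24, -0.24 and -0.21. None of the 7 had an adjusted p under 0.05 in edgeR. Summed with AC087289, a gene counted over it on the same strand at up to 4.07 CPM, MRPL38 overlapped between the groups, with a log2 ratio of means of 0.18. The 2 members with the highest FPKM overlapped between groups: MRPL12 was at 63.3, 61.9 and 58.5 CPM in controls and 68.2, 59.3 and 56.2 with 6-shogaol, and MRPL41 at 58.3, 60.3 and 62.2 against 62.4, 55.0 and 58.6. Their log2 fold changes were 0.00 and -0.04, with 95% intervals from -0.21 to 0.21 and from -0.22 to 0.14.

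The 3 paralogues of the bacterial small-subunit protein S18 gave 3 different orders of the groups. MRPS18B was at 48.9, 51.5 and 48.4 CPM in controls and 54.3, 64.7 and 60.3 with 6-shogaol, all treated libraries above the controls (edgeR adjusted p = 0.138). MRPS18A, which is built into the large subunit, was at 26.1, 27.0 and 25.6 CPM in controls and 24.4, 23.6 and 24.2 with 6-shogaol, all below the controls, with a log2 fold change of -0.12 (edgeR adjusted p = 0.427). MRPS18C was at 22.4, 23.1 and 24.6 CPM in controls and 22.4, 20.8 and 23.3 with 6-shogaol, and its groups overlapped (log2 fold change -0.07). No paralogue passed the test, and the difference between them was not tested. MRPS18A and MRPS18C share 47.0% and 40.2% of their exon length with genes on the opposite strand, RSPH9 at up to 0.726 CPM and ABRAXAS1 at 12.4 to 15.5 CPM.

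MRPS36 carries a mitoribosomal name but is now placed in the 2-oxoglutarate dehydrogenase complex of the citric acid cycle. It was at 28.98, 31.99 and 25.3 CPM in controls and 28.7, 31.5 and 30.3 with 6-shogaol. The groups overlapped, with a log2 fold change of 0.07 ± 0.11 (SE), at an edgeR adjusted p of 0.774. The deposited table gives 77 of the 78 members, MRPS36 included, the terms for mitochondrial translational elongation and termination, and MRPL45 is the member without them.

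The members are spread over the genome. They lie on 21 chromosomes, with at most 8 on any (chromosomes 1, 2 and 17). By GENCODE 29, 33 of 78 share exon bases with another counted gene, 22 of them over 10% of their exon length and 0 over 50%, and 31 have the start of a gene on the opposite strand within 1000 bases. The 22 members that share over 10% had a median log2 fold change of -0.09 with 6 above 0, and the 56 others 0.04 with 33 above 0. An unadjusted p under 0.05 in edgeR was held by 31.8% and 14.3% of them in that order, beside 20.4% of all genes tested. The difference between these sets was not tested. Among the members described above, the shared part was 14.9% for MRPS16, 19.5% for MRPL30, 14.7% for MRPL2, 27.0% for MRPS17, 12.2% for MRPL49, 14.4% for MRPS2, 11.3% for MRPL46 and 7.33% for MRPL28. It was also 41.1% for MRPL38, 21.1% for MRPL33, 15.5% for MRPL20 and 2.87% for MRPL19. The part of MRPL33 is shared with BABAM2, a gene on the same strand with a mean count of 1308. That of MRPL2 is shared with KLC4, a gene on the opposite strand at 18.0 to 23.6 CPM. DNAJC9-AS1, on the opposite strand with a mean count of 17.5, covers 14.1% of the exon length of MRPS16. Rows named as pseudogenes of the members took few counts: 76 such rows together held 0.276% of the members' counts. Only MRPS31P5 and MRPS31P4 (20.9% and 8.64% of the counts of MRPS31) and MRPL45P2 (6.28% of those of MRPL45) exceeded 5% of their parent gene. The part of reads exchanged between such copies and MRPS31 or MRPL45 was not tested.

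Genes that work with these proteins were read from the same fit. The 5 mitoribosomal proteins without an MRP symbol had values near 0 as well: DAP3, PTCD3, AURKAIP1, CHCHD1 and GADD45GIP1 had log2 fold changes of 0.01, 0.02, -0.02, 0.19 and 0.13, and 0 of 5 passed in edgeR, in DESeq2 or in limma, with 0 at an unadjusted p under 0.05. CHCHD1 was at 22.6, 25.3 and 25.5 CPM in controls and 28.3, 27.7 and 27.7 with 6-shogaol, with groups that did not overlap (edgeR adjusted p = 0.261). GADD45GIP1 was at 59.5, 58.2 and 52.8 CPM against 64.4, 59.5 and 62.7, meeting at 59.5 (edgeR adjusted p = 0.403).

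Of 24 factors for mitoribosome assembly and ribosomal RNA modification, 0 passed in edgeR, 5 had an unadjusted p under 0.05 (3 higher and 2 lower) and the median log2 fold change was 0.01. DESeq2 called 3 (MTG1 and TFB1M higher and TRUB2 lower) and limma on log2(FPKM + 1) called MTG1 and TFB1M. TFB1M, which dimethylates the small-subunit ribosomal RNA, was at 11.7, 11.2 and 11.6 CPM in controls and 15.4, 15.8 and 15.6 with 6-shogaol. Its groups were tight and well apart, with a log2 fold change of 0.44 ± 0.09 (SE), at an edgeR adjusted p of 0.0516. MTG1, a GTPase of large-subunit assembly, was at 24.1, 26.1 and 28.1 CPM in controls and 37.8, 33.8 and 34.6 with 6-shogaol. Its groups were also apart, with a log2 fold change of 0.44 ± 0.09 (SE), at an edgeR adjusted p of 0.0527, and 45.5% of its exon length is shared with other counted genes.

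Of 16 translation factors and messenger RNA partners, 0 passed in edgeR, 2 had an unadjusted p under 0.05 and the median log2 fold change was 0.05. DESeq2 and limma on log2(FPKM + 1) each called 1, LRPPRC, higher. LRPPRC, which stabilises mitochondrial messenger RNAs, was at 87.3, 91.1 and 95.6 CPM in controls and 108, 114 and 113 with 6-shogaol. All treated libraries were above all controls, with a log2 fold change of 0.29 ± 0.07 (SE), at an edgeR adjusted p of 0.0642. TACO1, the translational activator of cytochrome oxidase subunit I, was lower, at 34.1, 32.7 and 30.8 CPM against 29.2, 26.7 and 26.6 (log2 fold change -0.24; edgeR adjusted p = 0.17).

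Of 10 genes for mitochondrial transcription and the nucleoid, 0 passed in edgeR, 2 had an unadjusted p under 0.05 (POLG2 and TFAM, both higher) and the median log2 fold change was 0.06. DESeq2 and limma also called 0. POLG2, the accessory subunit of the mitochondrial DNA polymerase, was at 17.2, 15.4 and 15.8 CPM in controls and 18.2, 20.4 and 19.6 with 6-shogaol (log2 fold change 0.27; edgeR adjusted p = 0.184). TWNK, the replicative helicase, was uneven within both groups, at 6.54, 33.9 and 6.93 CPM against 7.67, 5.44 and 20.9. Its log2 fold change of -0.48 became 0.75 without control 2.

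The only gene among these 65 that passed in edgeR was a regulator. PPARGC1A, which encodes the coactivator PGC-1α of mitochondrial gene programmes, rose from 1.86, 1.97 and 2.0 CPM in controls to 4.11, 3.41 and 4.09 with 6-shogaol. The groups were far apart for so low a gene, with a log2 fold change of 0.99 ± 0.18 (SE), at an edgeR adjusted p of 0.0351. Leaving out any library kept the value between 0.95 and 1.07 but ended the call (edgeR adjusted p from 0.0545 to 0.131), as did testing without the filter on low counts (edgeR adjusted p = 0.0678). The 10 regulators had a median log2 fold change of 0.25, with 8 above 0 and 4 with an unadjusted p under 0.05, all higher, beside 10.4% of all genes tested that were higher at that p. DESeq2 called 3 of the 10, PPARGC1A, YY1 and MYC, all higher, and limma, which kept 8 of them, called 0. Over all 65 genes, 13 had an unadjusted p under 0.05 in edgeR, which is 20.0% beside 20.4% of all genes tested. The calls of the other tools in these lists stand beside 10.3% of all genes for DESeq2 and 6.04% for limma on log2(FPKM + 1). MYC, a further regulator of this list, was at 13.1, 19.2 and 10.9 CPM in controls and 24.8, 26.4 and 21.8 with 6-shogaol (log2 fold change 0.76; edgeR adjusted p = 0.104).

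**Figure D4:**
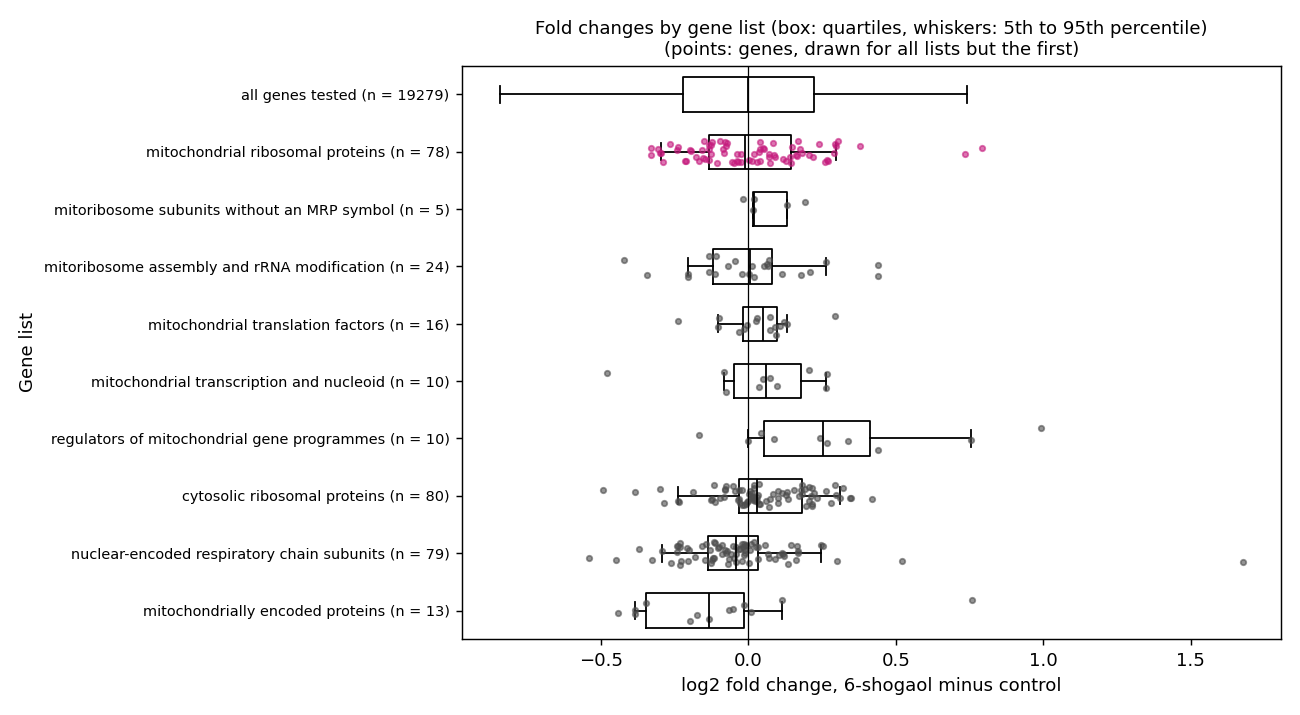
Log2 fold change (6-shogaol minus control) of the genes of each list (points; boxes, quartiles with the median; whiskers, the percentiles 5 and 95), with all 19279 genes tested as a box only. The members are centred on 0 (median -0.01), the 10 regulators lie highest (median 0.25) and the 13 mitochondrially encoded proteins lowest (median -0.13).

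Other groups of related genes came from the same fit. The 80 cytosolic ribosomal proteins had a median log2 fold change of 0.03, with 52 above 0. edgeR called 2 of the 80, both higher (RPSA and RPS3, 0.30 and 0.32), beside 3.38% of all genes tested, DESeq2 called 5, 3 higher and 2 lower, and 18 had an unadjusted p under 0.05 in edgeR, 12 higher and 6 lower. The 79 nuclear-encoded subunits of the respiratory chain had a median of -0.04, 0 called by edgeR, 2 by DESeq2 and 8 with an unadjusted p under 0.05. The 13 proteins that mitoribosomes make, encoded in the mitochondrial DNA, had a median of -0.13, 0 called by edgeR, 4 by DESeq2, all lower, and 4 with an unadjusted p under 0.05, all lower. Their summed share of TMM-scaled counts was 7.94%, 7.76% and 7.20% in controls and 5.98%, 7.55% and 6.995% with 6-shogaol, so the groups overlapped and 6-shogaol library 1 was lowest. An unadjusted p under 0.05 in edgeR was held by 22.5% of the cytosolic ribosomal, 10.1% of the nuclear-encoded and 30.8% of the mitochondrially encoded list. Over all genes tested that share was 20.4% (10.4% higher and 9.95% lower), and DESeq2 called 10.3% of the genes it gave an adjusted p. The difference between these lists and the members was not tested.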

How the data were processed

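RNA-seq libraries were made from total RNA with a SMARTER mRNA-Seq kit, per the labels, in 3 control and 3 treated U251 libraries grouped by their titles. The authors deposited raw counts per gene, not normalized, and FPKM values per the file headers (scaled for gene length and depth). In the FPKM values 0.0001 stands for 0 in single libraries, as for EPCAM in control 3, where its count was 0. Aligner, counting tool and strand setting are not given in the sources used here. The submitters' processing notes list the mouse builds GRCm38 and mm10, but 100% of the gene identifiers are human, so gene coordinates are those of the deposited table. 0 columns belonged to other samples.

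The counts were fitted with edgeR 4.0.16 in R 4.3.3 (filterByExpr, TMM, glmQLFit and glmQLFTest, Benjamini-Hochberg over 19279 genes, threshold 0.05). The standard error is the absolute log2 fold change over the square root of F, and 95% intervals use the t quantile of the fit. The common biological coefficient of variation was 25.3%. Each result was recomputed with DESeq2 1.42.0, RLE or upper-quartile factors, other filters, a block for replicate number, 1 library omitted at a time, a minimum mean count of 100, and limma 3.58.1 on log2(FPKM + 1) or log2(FPKM + 0.1). The steps were tested on simulated data. Libraries differed by more than sampling noise, so none was a copy of another. The subunit classes and pathway lists came from general knowledge, and the members and lists were chosen with earlier results of these data known. Named genes were the 6 members with the largest positive and the 6 with the largest negative fold change, the 3 highest and the 3 lowest in FPKM, MRPS18A, MRPS18B, MRPS18C and MRPS36, and of each pathway list the called genes and the 2 largest absolute fold changes. Exon overlap came from GENCODE 29 and promoters from RefSeq (GRCh38.p14).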

Additional observations from a re-analysis of the deposited data

How the results depend on the processing

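No member was called by edgeR under RLE or upper-quartile scaling, without a filter, with robust moderation (added after the data were seen) or with a minimum mean count of 100. Members called numbered 4 in DESeq2, 1 with a filter of 1 CPM in 3 libraries (MRPL51), 2 in limma on log2(FPKM + 1), 1 in limma on log2(FPKM + 0.1), and 0 to 1 when a library was left out. All genes called numbered 651 in the reported fit, 1561 in DESeq2, 378 without a filter, 277 in limma without a filter, and 98 to 1012 when a library was left out (98 without control 2 and 1012 without 6-shogaol 1). Of the 65 pathway genes, 7 were called by DESeq2, 4 with the filter of 1 CPM, 3 by limma with either pseudocount, 3 with robust moderation, 0 without a filter in edgeR or limma, and 0 to 1 when a library was left out. The share of all genes called with the filter of 1 CPM or with robust moderation is not given here. The members and pathway genes called in those fits therefore cannot be set against a background. PPARGC1A kept its direction in every fit that held it. Its log2 fold change was 0.18 in limma on log2(FPKM + 1) without a filter, a scale that understates low genes, and limma's filter left it out. The cause of these differences was not tested.

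The median log2 fold change of the members was 0.016 in limma on log2(FPKM + 1), 0.0166 on log2(FPKM + 0.1) and 0.016 without its filter, 0.0386 without members that share over 10% of their exon length (added after the data were seen), and -0.0342 to 0.0211 when a library was left out. Its sign therefore depended on the setting, always within 0.04 of 0. Over 31 named genes and 16 alternatives of the fit, 443 of 494 values kept direction and side of the threshold, 9 lost a call, 25 gained it and 17 changed sign, in 7 genes. The 7 were close to 0 or rested on single libraries. MRPL12 went from 0.00 to -0.00244 (RLE), -0.00487 (DESeq2), -0.00215 (no filter), -0.00479 (1 CPM) or -0.0108 (upper quartile), with -0.0843 to 0.0595 when a library was left out. Leaving out libraries gave -0.0687 to 0.53 for MRPL49, -0.0853 to 0.0027 for MRPL41, -0.427 to 0.0749 for MRPL46, -0.0892 to 0.174 for MRPL48, -0.0145 to 0.154 for MRPS36 and -1.27 to 0.75 for TWNK.

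Replicate numbers are shared by the groups, but same-numbered libraries did not deviate together (r of -0.03, 0.06 and -0.04 over 19279 genes), and not every library correlated best with its own number. With the number as a replicate block, edgeR called 3 genes in all, 0 members and 0 pathway genes, and the log2 fold changes of MRPL12 and MRPL48 were -0.0040 and -0.00409.

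With 3 libraries per group, differences smaller than the half-width of a member's interval did not reach an unadjusted p under 0.05 in edgeR. That half-width was 0.24 on the log2 scale at the median. The adjusted threshold was stricter, since 15 members had an unadjusted p under 0.05 in edgeR and 0 were called. MRPL51 was not called at a log2 fold change of -0.30, so differences above that median could also go uncalled. Mean counts of members were at least 138.5 (MRPL53, which shares 45.2% of its exon length with CCDC142 on the same strand, at 898% of its counts). The widest errors were those of MRPL30 and MRPL49 (SE of 0.39 and 0.37), at mean counts of 1794 and 2551.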

Other observations

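Regulators and assembly factors outside the named genes were spread on both sides, and are given here as values chosen after they were seen. YY1, a transcription factor whose sequence was searched in the promoters, was at 87.5, 73.1 and 79.5 CPM in controls and 106, 99.6 and 120 with 6-shogaol, with groups that did not overlap (log2 fold change 0.44; edgeR adjusted p = 0.0668). GABPA, the DNA-binding subunit of GABP, was at 44.2, 37.9 and 38.4 CPM against 43.2, 55.7 and 53.3, and its groups overlapped (log2 fold change 0.34; edgeR adjusted p = 0.172). The gene for NRF1 was at 26.1, 23.6 and 30.2 CPM against 25.5, 20.6 and 24.9, also overlapping (log2 fold change -0.17). TFAM, the packaging protein of mitochondrial DNA, was at 45.2, 46.5 and 41.6 CPM in controls and 48.1, 56.3 and 55.7 with 6-shogaol (log2 fold change 0.26; edgeR adjusted p = 0.166).

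TRUB2, a pseudouridine synthase of mitochondrial RNA, was at 36.0, 40.3 and 34.9 CPM in controls and 30.4, 27.9 and 29.3 with 6-shogaol (log2 fold change -0.34; edgeR adjusted p = 0.0858). DDX28, a helicase of large-subunit assembly, was at 12.6, 12.4 and 12.9 CPM in controls and 11.3, 8.95 and 7.92 with 6-shogaol (log2 fold change -0.42; edgeR adjusted p = 0.175). Both had groups that did not overlap, in the direction opposite to that of TFB1M and MTG1.

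The member with the fewest counts and a member with many both had uneven replicates. MRPL53, with the fewest counts, was at 3.08, 2.65 and 2.30 CPM in controls and 3.22, 1.63 and 2.64 with 6-shogaol. MRPL37, with the next most counts after MRPS10, was at 87.6, 86.4 and 115 CPM in controls and 128, 125 and 93.3 with 6-shogaol, so control 3 lay above 6-shogaol library 3 and below the other treated libraries.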
